A study of Mus musculus with 42 samples.

Results

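A set of 10 genes for sensing bacterial products, of 19237 named genes in the deposited tables, was followed across goblet cells, stromal cells and organoids of the mouse large intestine. The members were taken by symbol and were present in all 12 tables. They were Lbp, Cd14 and Ly96, whose products bind and present lipopolysaccharide, the receptors Tlr4, Tlr2 and Tlr5, the adaptor Myd88, the cytosolic receptors Nod1 and Nod2, and the NOD-like receptor Nlrp6. All 10 passed the filter on low values in every comparison. Lbp, however, passed it in organoids only through the cytokine-treated libraries, and in a goblet cell comparison only through the controls.

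Toll-like receptors are membrane proteins that recognize conserved microbial structures, and most of them signal through MyD88 to NF-κB and to mitogen-activated protein kinases. Lipopolysaccharide is handed from LBP to CD14 and then to the complex of TLR4 with MD-2, the product of Ly96, whereas TLR2 recognizes lipoproteins and TLR5 recognizes flagellin. NOD1 and NOD2 recognize fragments of peptidoglycan in the cytosol, and NLRP6 is an intestinal epithelial receptor that has been linked to the mucus layer and to the microbiota.

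RNA sequencing covered 42 libraries in 18 groups. In each colon segment, proximal or distal, goblet cells were isolated by Muc2-mCherry and stromal cells by Gli1-tdTomato, with 2 libraries per group, and colonic organoids were grown with or without interleukins, with 3 libraries per group. Control mice for goblet cells (GWTM2) and for stromal cells (GWTT) carried Gli1-CreERT2 and the reporter, and the knockout mice also had loxP-flanked Smad4 (GS4M2 and GS4T) or Alk3 (GA3M2 and GA3T, the gene also named Bmpr1a). All mice, controls included, received tamoxifen on 5 consecutive days and were sampled at day 30, so the recombinase acted in Gli1+ stromal cells and goblet cells were not targeted. The mice were of both sexes and 2 to 4 months old, and how many mice went into a library is not given in the labels. The organoids were wild type and received 10 nM of IL-1α with IL-1β (IL-1) or 10 nM of IL-17A for 12 h or 72 h, and their controls received no cytokine.

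Several libraries have to be known before the values are read. Reads assigned to named genes ran from 14222902 to 23686940 per library. The untreated organoid library numbered 2 at 12 h held the same reads as number 1 at 72 h, and number 4 at 12 h held the same reads as number 4 at 72 h, so the 6 untreated columns stood for 4 distinct libraries. The IL-1 and the IL-17A tables of a time shared their controls, and both knockouts were set against the same control libraries. Xist gave the sex of each library, with more than 100 CPM taken as female. Uty had no value in the GS4T-Distal libraries and was at most 0.59 CPM in the other female ones. At 72 h all 3 IL-17A libraries were male, while 2 of the 3 controls and 1 of the 3 IL-1 libraries were female. In goblet cells GWTM2 replicate 1 of each segment was female, and all GS4M2 and GA3M2 libraries were male. All GS4T and GWTT-Distal libraries were female, while GWTT-Proximal and both GA3T groups held 1 male and 1 female library each. Hoxb13, a gene of the distal colon, was at 25.1 CPM (reads of a gene scaled to a common library total) in one distinct untreated library and 27.6 CPM in IL-17A number 2 at 72 h, against 134 to 252 CPM in the other 14 organoid libraries. Smad4 was at 41.5 to 70.1 CPM in GS4T and 94.9 to 109 CPM in GWTT, and Bmpr1a was at 105 to 125 CPM in GA3T and 166 to 189 CPM in GWTT. Gli1 itself was at 1.4 CPM in GS4T-Proximal replicate 2 and 2.0 CPM in GA3T-Proximal replicate 2, against 38.0 to 99.6 CPM in the other 10 stromal libraries.

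The genes lie on 9 chromosomes of GRCm38. By the GENCODE M21 annotation Ly96 spans chr1:16688051-16709611 and Tlr5 chr1:182954788-182976044, both on the plus strand, and the other members with a coordinate given here are Lbp at chr2:158306493-158332852 (plus), Tlr2 at chr3:83836272-83841767 (minus), Tlr4 at chr4:66827584-66930284 (plus), Nod1 at chr6:54923949-54972612 (minus), Nlrp6 at chr7:140920902-140929192 (plus), Nod2 at chr8:88647315-88688474 (plus) and Myd88 at chr9:119335934-119341411 (minus). RefSeq promoters on GRCm38.p6, 250 bases before to 50 bases after the start, were at hand for 6 of the 10 members. Those of Tlr2, Nod2 and Nlrp6 are shown because Tlr2 and Nod2 were both called higher in organoids at 72 h and Nlrp6 had the highest organoid level. Capitals mark matches to the κB consensus in Tlr2 and to the AP-1 motif TGANTCA in Nlrp6, both searched on both strands. They are Tlr2 (chr3:83841559-83841858, minus strand), Nod2 (chr8:88647097-88647396, plus strand) and Nlrp6 (chr7:140920652-140920951, plus strand):
Tlr2: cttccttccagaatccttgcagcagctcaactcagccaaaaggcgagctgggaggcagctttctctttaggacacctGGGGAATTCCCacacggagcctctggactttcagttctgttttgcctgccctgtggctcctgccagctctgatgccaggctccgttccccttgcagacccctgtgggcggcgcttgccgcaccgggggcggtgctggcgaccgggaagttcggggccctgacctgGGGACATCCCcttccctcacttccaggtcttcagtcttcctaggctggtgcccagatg
Nod2: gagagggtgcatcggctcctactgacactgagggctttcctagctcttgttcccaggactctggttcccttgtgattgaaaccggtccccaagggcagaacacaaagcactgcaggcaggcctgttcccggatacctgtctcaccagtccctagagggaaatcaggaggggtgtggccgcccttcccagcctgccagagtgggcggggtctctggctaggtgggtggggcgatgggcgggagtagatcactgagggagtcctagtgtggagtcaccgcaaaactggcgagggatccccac
Nlrp6: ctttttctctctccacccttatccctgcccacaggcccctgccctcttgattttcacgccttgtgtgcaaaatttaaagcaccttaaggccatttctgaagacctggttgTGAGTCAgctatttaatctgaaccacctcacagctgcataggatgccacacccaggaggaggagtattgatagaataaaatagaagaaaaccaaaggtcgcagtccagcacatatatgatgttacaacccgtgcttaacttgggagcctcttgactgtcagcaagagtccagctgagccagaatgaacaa
In Tlr2 a pair of overlapping κB matches, GGGGAATTCC and GGGAATTCCC, began 173 and 172 bases before the start, and a further match, GGGACATCCC, began 8 bases before it. The Nlrp6 match, TGAGTCA, began 140 bases before the start. Neither motif was found in this window of Nod2, Myd88, Nod1 or Tlr5. Of 32851 mouse promoters of the same length, 4.51% held a κB match and 7.81% held the AP-1 motif, so the matches describe these windows and were not tested for any function.

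In control libraries the 3 cell populations held the members at different levels. Per kb of exon, Nlrp6 and Cd14 led in epithelium, Lbp led in proximal stroma and Cd14 in distal stroma. In untreated organoids Nlrp6 stood at 55.3 ± 18.6 CPM per kb (SD, n = 4 distinct libraries), above every other member in each library. Cd14 came next at 32.0 ± 8.12, followed by Myd88 at 10.4 ± 1.14, and both stood apart from their neighbours below. Tlr2 (6.37 ± 1.39), Tlr4 (5.06 ± 2.05), Nod1 (3.51 ± 0.418) and Ly96 (3.19 ± 0.704 CPM per kb) followed in an order whose neighbours overlapped. Tlr5 at 1.05 ± 0.688 CPM per kb overlapped Nod2 at 0.504 ± 0.0966, and Lbp was lowest at 0.0342 ± 0.0268 CPM per kb, with no read in one of the 4 libraries, where a count of 0 allows up to 3 reads.

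GWTM2 goblet cells had Cd14 at 40.9 ± 28.1 and Nlrp6 at 34.8 ± 9.30 CPM per kb (SD, n = 4), and these ranges overlapped. Myd88 (12.7 ± 0.894) and Nod1 (8.72 ± 2.47 CPM per kb) formed the next overlapping pair. Tlr2, Tlr4 and Ly96 lay close together at 4.70 ± 1.64, 4.63 ± 0.540 and 4.49 ± 1.18 CPM per kb. Below them Nod2 (2.06 ± 0.892), Tlr5 (1.01 ± 0.651) and Lbp (0.576 ± 0.808 CPM per kb) each overlapped the next. GWTM2-Distal replicate 1 stood apart from its partner, with Cd14 at 2527 against 882 normalized counts, Lbp at 150.5 against 5.66 and Nod2 at 269.9 against 86.0, while Muc2, the goblet mucin, was at 2429 CPM in it and 6270 CPM in the other.

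GWTT stromal cells had Lbp at 23.1 ± 11.7, Myd88 at 18.1 ± 2.35, Cd14 at 17.5 ± 11.8 and Nod1 at 15.0 ± 1.64 CPM per kb (SD, n = 4), each overlapping the next. The segments differed in this order: Lbp led in the proximal colon at 32.8 ± 3.73 CPM per kb with Cd14 at 7.30 ± 1.43, and Cd14 led in the distal colon at 27.6 ± 1.88 with Lbp at 13.4 ± 5.05 (SD, n = 2). Tlr4 at 7.47 ± 1.26 and Tlr2 at 6.60 ± 1.54 CPM per kb overlapped each other, and Ly96 followed at 3.79 ± 0.696. Nlrp6, Nod2 and Tlr5 closed the order at 1.02 ± 1.25, 0.874 ± 0.426 and 0.639 ± 0.384 CPM per kb, with overlapping ranges. Collagen and other stromal markers summed to 42212 to 58568 CPM in stromal libraries and to at most 61.8 CPM in goblet and organoid libraries.

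**Figure D1:**
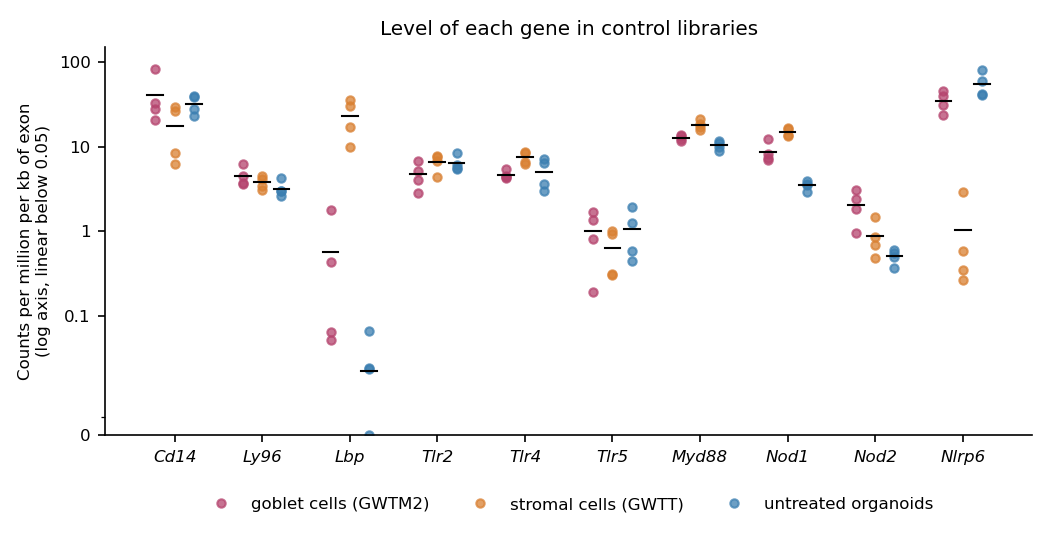
Level of each member in control libraries, in CPM per kb of exon on a log axis that is linear below 0.05. Points are libraries (4 of GWTM2 goblet cells, 4 of GWTT stromal cells, 4 distinct untreated organoid libraries) and black lines are means; Nlrp6 is highest in organoids, and Lbp is highest in stromal cells and near 0 in organoids.

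Goblet cells were set against stromal cells in the control mice to ask which sensors belong to which compartment. Nlrp6 was higher in goblet cells by 5.51 ± 0.64 on the log2 scale (estimate ± SE; limma adjusted p = 0.000121) and Cd14 by 1.12 ± 0.36 (adjusted p = 0.0232). Cd14 was apart in the proximal colon only, at 35.6 and 56.5 CPM in GWTM2 against 10.9 and 14.4 CPM in GWTT. In the distal colon it was at 48.7 and 143 CPM against 45.5 and 50.1 CPM, which overlapped. Lbp was lower by 6.56 ± 1.07 (adjusted p = 0.000802) and Nod1 by 1.02 ± 0.18 (adjusted p = 0.00119). A gene was called at an adjusted p under 0.05 and a log2 change of at least 1 in size, and 4 of the 10 members were called where 43.5% of the 12753 genes tested were. Tlr4 and Myd88 were lower in goblet cells by smaller amounts, with log2 changes of -0.88 ± 0.14 (adjusted p = 0.000804) and -0.71 ± 0.11 (adjusted p = 0.000595). Tlr2 (-0.72, adjusted p = 0.0521) and Nod2 (1.02, adjusted p = 0.0631) missed the threshold, as did Tlr5 (0.29) and Ly96 (0.03). Of the wider sensing lists, 10 of 11 inflammasome genes tested were called higher in goblet cells and 1 lower, with a median log2 change of 3.92 against 0.01 over all genes. They included the sensors of bacterial proteins Naip1 (6.55), Naip5 (5.18) and Naip6 (5.08), and outside that list Pglyrp1, a peptidoglycan recognition protein, was higher by 7.24 while Irf5 and Socs3 fell by 5.56 and 5.55. The share of all genes called higher is not given beside the 43.5% called in either direction, so no excess is read from 10 of 11. The filter on low values took the mean over both cell types, so a gene could pass it through 1 of them alone. Cells of both segments entered the fit, with segment as a term. Without GWTT-Proximal replicate 2, which held epithelial markers at 554 CPM against 14.1 CPM in its partner, the count was 2.

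In stromal cells of Smad4 knockout mice the co-receptor Cd14 rose most, and Tlr2 rose with it in both segments. The comparison asks how loss of BMP signalling in Gli1+ cells changes the sensing genes of those cells. In the proximal colon Cd14 had normalized counts of 184 and 239 in GWTT and 2147 and 1488 in GS4T. The groups were far apart, and the log2 fold change was 3.09 ± 0.23 (SE; limma adjusted p = 0.00523). Tlr2, the lipoprotein receptor, had 223 and 336 against 587 and 544, a log2 fold change of 1.04 ± 0.23 (adjusted p = 0.0421). Tlr5, the flagellin receptor, had 24.8 and 24.6 in GWTT against 112 and 83.7 in GS4T, and changed by 1.93 ± 0.37 (adjusted p = 0.0305). The 2 control libraries were nearly equal for Tlr5 and both knockout libraries lay above 80 counts, and 34% of genes were higher in both GS4T libraries than in both controls. These 3 members were called, of 10, where 9.61% of 15319 genes were called and 5.25% were called higher. The members' median log2 change was 0.61 against 0.02 over all genes. Lbp (0.43), Nod2 (0.80) and Nlrp6 (1.86, SE 1.10) had positive values and Nod1 (-0.61, adjusted p = 0.0766), Myd88 (-0.28), Tlr4 (-0.16) and Ly96 (-0.13) negative values that missed the threshold.

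In the distal colon Cd14 had 822 and 740 normalized counts in GWTT and 3377 and 2392 in GS4T, a log2 fold change of 1.86 ± 0.18 (limma adjusted p = 0.00278). Tlr2 had 369 and 382 against 840 and 759, with a change of 1.09 ± 0.13 (adjusted p = 0.00516). Lbp, the secreted lipopolysaccharide binding protein, had 1346 and 772 against 2167 and 3577, with a change of 1.45 ± 0.33 (adjusted p = 0.0294). For all 3 genes every GS4T library lay above both controls, as it did for 34.4% of genes. Nod1 went the other way, with 1118 and 1331 in GWTT against 662 and 844 in GS4T, and its log2 value fell by 0.71 ± 0.17 (adjusted p = 0.032), less than the minimum of 1 for a call. The count was 3 of 10 members where 14% of 15262 genes were called and 7.88% were called higher, and the members' median was 0.36 against 0.00 over all genes. Tlr5 had 73.3 and 78.4 counts in GWTT and 102 and 71.6 in GS4T, which overlapped, and Tlr4 (-0.19), Myd88 (0.08), Nod2 (-0.22), Ly96 (0.55) and Nlrp6 (1.14, adjusted p = 0.168) were not called.

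**Figure D2:**
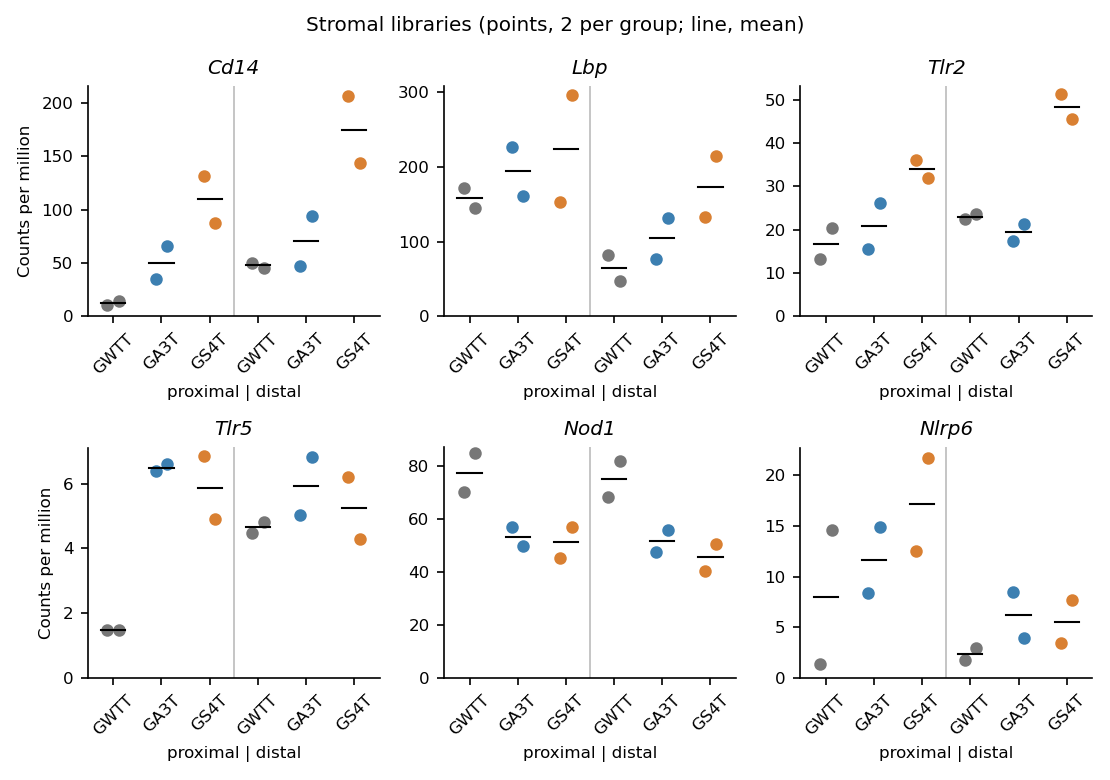
Level in CPM of Cd14, Lbp, Tlr2, Tlr5, Nod1 and Nlrp6 in the 12 stromal libraries, proximal groups left of the grey line and distal groups right of it; points are libraries (2 per group) and black lines are means. The GS4T libraries lie above both GWTT libraries for Cd14 and Tlr2 in both segments.

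Alk3 knockout stromal cells had higher proximal values of Cd14 and Tlr5, the members with the largest proximal changes in GS4T, but neither was called by limma. Proximal Cd14 had 194 and 251 normalized counts in GWTT and 618 and 1150 in GA3T, a log2 change of 1.93 ± 0.34 (limma adjusted p = 0.086). Tlr5 had 26.1 and 25.9 against 114 and 116, a change of 2.10 ± 0.33 (adjusted p = 0.0763). Neither gene's groups overlapped, like those of 28.8% of genes in this direction, and DESeq2 on the recovered reads gave adjusted p = 1.46e-05 for Cd14 and 0.000173 for Tlr5, whereas edgeR gave 0.0974 and 0.0881. By limma 0 of 10 members and 0.358% of 15346 genes were called, with 5 members at an unadjusted p under 0.05 and 2 called by DESeq2, which called 6.31% of genes. The share of all genes at that unadjusted p is not given, so the 5 cannot be read as an excess. Nod1 (-0.53), Myd88 (-0.51) and Tlr4 (-0.41) were lower in both GA3T libraries than in both controls, a pattern that 27.5% of genes showed. In the distal colon 0 members and 0% of 15414 genes were called, with 2 members at an unadjusted p under 0.05 and 0 called by DESeq2 or edgeR. Distal Cd14 had 938 and 842 counts in GWTT against 847 and 1810 in GA3T, which overlapped. GS4T and GA3T shared their controls, so their values are not independent of each other.

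Markers of other cell types moved with the stromal values. Summed macrophage markers (13 genes) ran from 264 to 397 CPM in GWTT-Proximal, from 900 to 1616 in GA3T-Proximal and from 1001 to 1785 CPM in GS4T-Proximal. In the distal colon the sums were 733 to 813 CPM in GWTT, 846 to 1186 in GA3T and 1295 to 2369.5 in GS4T. None of the 13 was at 0 in a stromal library, and Adgre1, a macrophage receptor, was at 9.0 to 29.3 CPM in GWTT and 25.7 to 77.7 CPM in GS4T. Summed neutrophil markers (8 genes) were at 5.02 to 15.8 CPM in GWTT, 52.4 to 126 in GA3T, 105 to 126 in GS4T-Proximal and 328 to 509 in GS4T-Distal. Epithelial markers (8 genes) were at 14.1 to 554 CPM in GWTT, 453 to 1086 in GA3T and 733 to 1715 CPM in GS4T. Macrophages and neutrophils express Cd14 and Tlr2, and the part of these cells in the Cd14 and Tlr2 values of GS4T and GA3T was not tested. In bulk samples more cells of a type cannot be told apart from more RNA per cell. GWTT-Proximal replicate 1 had Nlrp6 at 1.35 CPM with epithelial markers at 14.1 CPM, and replicate 2 had 14.6 with 554 CPM. In each of the 6 stromal groups the library with the higher epithelial sum had the higher Nlrp6, but the order did not hold across segments: GS4T-Distal had 3.40 and 7.66 CPM of Nlrp6 with sums of 733 and 1475 CPM, both below GWTT-Proximal replicate 2. The part of epithelial cells in these values was not tested.

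**Figure D3:**
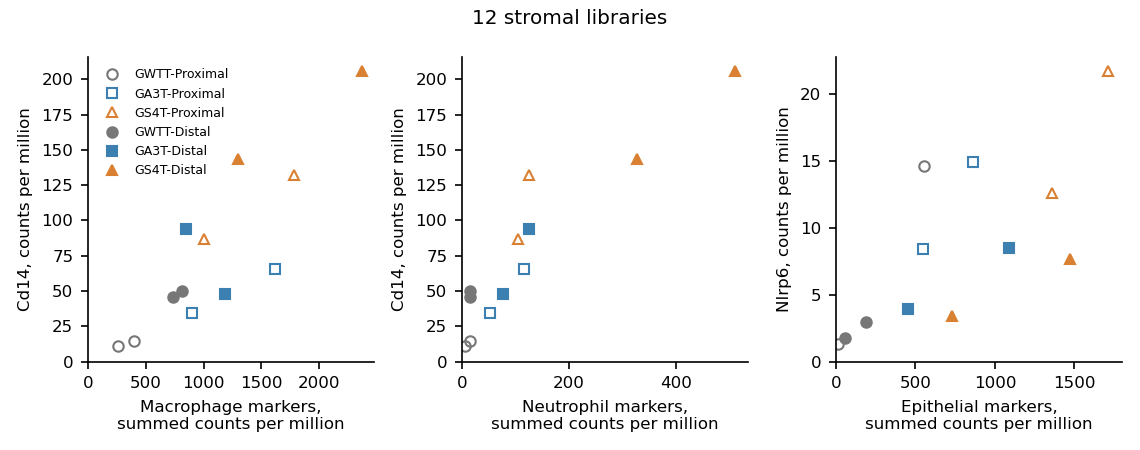
Level in CPM of Cd14 against the summed macrophage and neutrophil markers, and of Nlrp6 against the summed epithelial markers, in the 12 stromal libraries; shapes mark the genotype, open symbols the proximal and filled symbols the distal colon. Cd14 lies at 87.0 to 206 CPM in the 4 GS4T libraries, with one GA3T-Distal library at 93.8 CPM among them, and the library with the lowest epithelial sum has the lowest Nlrp6.

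The calls in stromal cells rested on 2 libraries per group. Leaving out GS4T-Proximal replicate 1 gave 0 called members (Cd14 2.82, adjusted p = 0.0531), leaving out GS4T-Proximal replicate 2, the library with Gli1 at 1.4 CPM, gave 1, and leaving out GWTT-Proximal replicate 2 gave 4. In the distal colon leaving out a library gave 2 or 3 called members, and Lbp lost its call without GWTT-Distal replicate 2 (1.05, adjusted p = 0.111) or GS4T-Distal replicate 2 (1.09, adjusted p = 0.0865). The knockout effect was also compared between segments in one fit. For GS4T the difference, proximal minus distal, was 1.22 ± 0.33 for Cd14 (adjusted p = 0.232) and 1.76 ± 0.45 for Tlr5 (adjusted p = 0.195), and 0 members were called where 0.189% of 15310 genes were. For GA3T the differences were 1.45 ± 0.57 for Cd14 (adjusted p = 0.675) and 1.78 ± 0.42 for Tlr5 (adjusted p = 0.459), with 0 members and 0% of genes called. In each of these 2 fits 2 members had an unadjusted p under 0.05, and edgeR called 0.

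Other genes of bacterial sensing in stromal cells were read from lists of their own. Their counts stand beside the 5.25% (proximal) and 7.88% (distal) of all genes that were called higher in GS4T. In GS4T-Proximal 2 of 9 other Toll-like receptors tested were called higher, Tlr13 (log2 change 2.80) and Tlr8 (2.43), both endosomal receptors of RNA. Among 13 inflammasome genes 2 were called higher, Nlrp3 (3.21) and the flagellin sensor Naip5 (2.26), and the list's median was 2.07. Il1rl1, the receptor of IL-33 that was listed among Toll pathway inhibitors, rose by 3.97, and Slc15a3, a transporter of muramyl peptides, rose by 2.65. In GS4T-Distal 4 of 9 other Toll-like receptors and 9 of 13 inflammasome genes were called higher and 0 lower. The largest changes there were in Il1rl1 (5.45), Pglyrp1 (4.14), Naip1 (3.53), Cd36 (-3.29), Nlrp9b (2.87) and Tlr13 (2.19). Epithelial markers summed to 733 to 1475 CPM in GS4T-Distal against 59.4 to 190 CPM in GWTT-Distal. Neutrophil markers summed to 328 to 509 CPM against 14.4 to 15.8 CPM. Naip1, Naip5 and Pglyrp1 were among the genes higher in goblet than in stromal control cells. The part of epithelial cells, macrophages and neutrophils in the values of these lists was not tested. Of 19 adaptors and kinases 0 were called in GS4T-Proximal and 1 in GS4T-Distal, where 9.61% and 14% of all genes were. In GA3T-Proximal Slc15a3 (2.44) was the single gene called in these lists, and in GA3T-Distal 0 were called by limma and 7 by DESeq2. The share of all genes that DESeq2 called in GA3T-Distal is not given, so the 7 cannot be read as an excess.

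In goblet cells of the knockout mice, in which the deletion was not induced, no member passed the test. In the 4 comparisons limma called 0 of 10 members, where the shares of all genes called were 0.325% (GS4M2 proximal), 0% (GS4M2 distal), 0.0899% (GA3M2 proximal) and 0% (GA3M2 distal). By DESeq2 and by edgeR 0 members were called in each, and at an unadjusted p under 0.05 there were 1, 0, 2 and 0 members. Cd14 and Nod2 had the lowest unadjusted p. Cd14 in proximal GA3M2 cells had 1024 and 646 normalized counts in GWTM2 and 1509 and 1683 in GA3M2, a log2 change of 0.97 ± 0.25 (limma adjusted p = 0.223, DESeq2 adjusted p = 0.0459). Nod2 in proximal GS4M2 cells had 208 and 158 in GWTM2 and 297 and 292 in GS4M2, a change of 0.70 ± 0.19 (adjusted p = 0.173). In both cases the knockout libraries lay above the controls, as did those of 26% and 25% of all genes. Nlrp6 stayed within 0.14 of control on the log2 scale in all 4 comparisons (-0.01, 0.14, -0.07 and 0.10), with standard errors of 0.14 to 0.19.

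Tlr2 had log2 values of -0.64 and -0.83 in GS4M2 and 0.23 and 0.34 in GA3M2 (proximal and distal), Tlr5 had -0.83 in proximal GA3M2 cells (adjusted p = 0.308), and none passed the test. Lbp was too sparse and too uneven to compare, at 2.10 to 70.5 normalized counts in knockout cells and 4.32 to 150.5 in GWTM2. In the proximal colon it had 7 reads in GS4M2 against 45 in GWTM2, and passed the filter on low values there only through the controls. The distal comparisons rested on GWTM2-Distal replicate 1, described above, and Cd14 had standard errors of 0.49 and 0.48 there. That library was the only female one in the distal comparisons, as GWTM2-Proximal replicate 1 was in the proximal ones. With 1 female library in each, sex cannot be told apart from the library. The Muc2 level of the sorted cells also differed, with 733 to 1027 CPM in GA3M2 against 2429 to 12374 CPM in GWTM2, and summed goblet markers of 9084 to 21204 CPM against 29837 to 61479 CPM. Macrophage markers summed to 33.5 to 44.3 CPM in GA3M2 against 7.57 to 15.9 CPM in GWTM2 and 7.94 to 15.7 in GS4M2, with 4 or 5 of 13 genes at 0 in GA3M2 and Adgre1 at 0 in all 12 libraries. For markers, here and below, a gene without a row in a deposited table was set to 0, so a 0 may be a missing row. Neutrophil markers summed to 19.8 to 125 CPM in GA3M2, most of it Ly6g, against 0.378 to 9.01 CPM in GWTM2, with 5 of 8 genes at 0 in each GA3M2 library. Their part in the Cd14 values of GA3M2 was not tested. Comparing the knockout effect between segments gave 0 called members and 0% of genes called for both genotypes, with 1 member for GS4M2 and 0 for GA3M2 at an unadjusted p under 0.05. Of the wider sensing lists 0 genes were called in any goblet comparison by limma, and DESeq2 called 2 in proximal GA3M2 cells.

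In organoids treated for 12 h Nod2 and Lbp were higher in every cytokine-treated library than in every control, and Nod2 was called with IL-1. The comparison asks what an epithelium without stroma does when given the cytokines. With IL-1, Nod2 went from 30.0, 44.0 and 38.9 normalized counts to 184, 195 and 157, a log2 fold change of 2.23 ± 0.22 (SE, n = 3 against 3; limma adjusted p = 0.0418). With IL-17A it went from 31.5, 46.1 and 40.7 to 110.3, 114 and 134, a change of 1.58 ± 0.23 (adjusted p = 0.143). The treated libraries lay close together in both cases and far above every control. The count was 1 of 10 members with IL-1, where 0.0542% of 12913 genes were called, and 0 of 10 with IL-17A, where 0.0385% of 12977 genes were called. At an unadjusted p under 0.05 there were 4 and 5 members, Lbp among them, and 3 and 4 of 9 without it. The share of all genes at that p is not given, so these counts cannot be read as an excess. Of the 9 members other than Lbp, DESeq2 called 1 in each table, Nod2, where it called 0.333% (IL-1) and 0.393% (IL-17A) of genes. It also called Lbp, which passed the filter on low values only through its treated libraries and is not counted here. By edgeR 0 members were called.

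Cd14 at 12 h had 779, 626 and 1051 normalized counts in controls and 1411, 1521 and 1467 with IL-1, a log2 change of 0.87 ± 0.19 (limma adjusted p = 0.525, DESeq2 adjusted p = 0.0217). With IL-17A it had 818, 656 and 1100 against 1485, 1756 and 1650, a change of 0.95 ± 0.19 (adjusted p = 0.458, DESeq2 adjusted p = 0.00725). The lowest treated library lay above the highest control in both tables. Lbp had 2.81, 0 and 2.65 in controls against 40.1, 49.1 and 44.7 with IL-1 (adjusted p = 0.163) and 30.2, 44.5 and 45.6 with IL-17A (adjusted p = 0.186). In reads this was 6 in all control libraries against 136 with IL-1 and 121 with IL-17A, ratios of 23.7 (95% exact interval 10.6 to 65.8) and 20.2 (9.03 to 56.2) per read of depth. These intervals cover counting error only. Ly96 was also higher without overlap, at 42.1 to 49.7 in controls against 58.6 to 63.4 with IL-1 (0.41, adjusted p = 0.886) and 44.1 to 52.1 against 58.3 to 94.0 with IL-17A (0.59, adjusted p = 0.926). Tlr2 did so with IL-17A alone, 275 to 424 against 432 to 554 (0.51, adjusted p = 0.926). Of the 9 members other than Lbp, 3 with IL-1 and 4 with IL-17A lay above all controls, where 5.3% and 5.91% of genes did. Lbp passed the filter on low values only through its treated libraries, so its test supports no count of members.

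Myd88 and Nod1 had log2 values between -0.10 and -0.02 at 12 h, with overlapping groups. Tlr4, Tlr5 and Nlrp6 varied between libraries more than between treatments. Tlr4 was at 269 and 322 in the male controls, 618 in the female control, 293 in the male IL-1 library and 688 in each of the female IL-1 libraries. Nlrp6 ran the other way, with 4944 and 6444 in the male controls, 3249 in the female control, 4961 in the male IL-1 library and 3074 and 3022 in the female ones. For Tlr4 and Nlrp6 each library of a sex sat near the others of that sex, whatever its treatment. The part of sex and of the organoid line cannot be told apart. Tlr5 averaged 122 in the male controls and was at 65.7 in the male IL-1 library, below both. It was at 43.3 in the female control and averaged 35.3 in the female IL-1 libraries. Nod2 was 4.97 times its control mean with IL-1 among male and 4.51 times among female libraries, and Cd14 2.01 and 1.42 times.

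**Figure D4:**
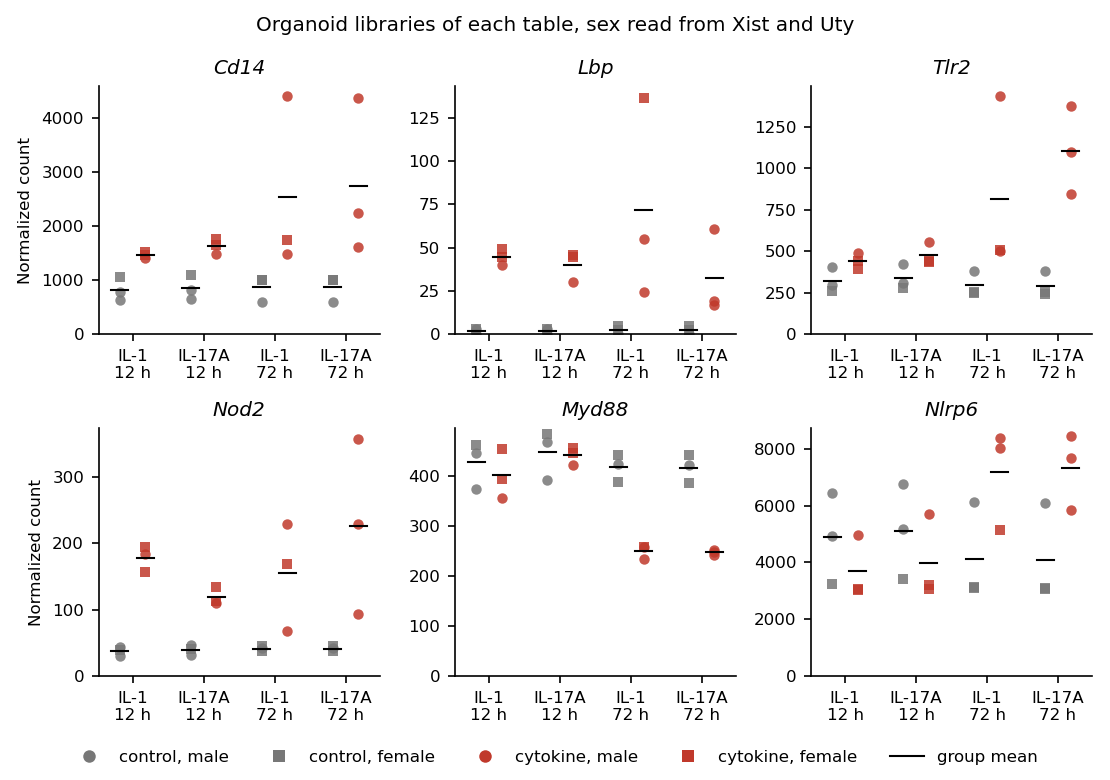
Normalized counts of Cd14, Lbp, Tlr2, Nod2, Myd88 and Nlrp6 in each library of the 4 organoid tables, controls in grey and cytokine-treated libraries in red, circles male and squares female, black lines group means. Nod2, Lbp and Cd14 of treated libraries lie above their controls in all 4 tables, and Myd88 lies below them at 72 h.

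The call at 12 h depended on every library. Nod2 with IL-1 kept log2 values of 2.08 to 2.34 when any of the 6 libraries was left out, but its adjusted p was then 0.119 to 0.512, lowest without Control-12h replicate 4 and highest without IL1a+IL1b-12h replicate 3. The IL-1 libraries 3 and 4 and the IL-17A libraries 3 and 4 differed by 2.60 and 2.87 times counting noise, and averaging each pair as 1 replicate gave 0 called members in both tables.

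After 72 h Cd14, Tlr2 and Nod2 were called with both cytokines, on control libraries of which numbers 2 and 4 differed by only 2.67 times counting noise. With that pair averaged as 1 replicate none of them was called: with IL-1 Cd14 had 1.55 (adjusted p = 0.0544), Tlr2 1.21 (adjusted p = 0.108) and Nod2 1.71 (adjusted p = 0.0606), and with IL-17A each had adjusted p = 0.164. Controls 1 and 4 held the same reads as untreated 12 h libraries, and the time those reads belong to is not known. A cytokine effect at 72 h therefore cannot be fully told apart from time in culture. With IL-1 and all libraries, Cd14 had 593, 1002 and 1008 normalized counts in controls and 4409, 1751 and 1487 in treated libraries, a log2 fold change of 1.42 ± 0.41 (limma adjusted p = 0.0289). Tlr2 had 383, 246 and 252 against 1437, 508 and 502, a change of 1.31 ± 0.42 (adjusted p = 0.0393). Both genes were highest in IL-1 library 1, while the other treated libraries lay close together. Library 1 also stood apart in its markers, with goblet markers at 2381 CPM against 6995 to 7581 in the 72 h controls and 8577 and 10463 in the other IL-1 libraries, and stromal markers at 59.7 CPM (5 of 9 genes at 0) against 8.98 to 18.5 and 13.7 and 32.6. Without it the log2 changes of Cd14 and Tlr2 were 0.94 (adjusted p = 0.037) and 0.81 (adjusted p = 0.0452), under the minimum for a call, and the part of its composition was not tested. Nod2 had 41.7, 44.8 and 37.3 against 229, 168 and 68.0, a change of 1.72 ± 0.45 (adjusted p = 0.0206). Lbp had 0, 4.76 and 2.54 against 24.1, 137 and 54.9, a change of 4.40 ± 0.86 (adjusted p = 0.00785, and 0.00700 with no filter on low values), which was 8 against 207 reads and a ratio of 25.8 (95% exact interval 12.8 to 60.5). No treated library overlapped a control for these 4 genes. Myd88 had 424, 388 and 443.5 in controls and 234, 259 and 259 with IL-1, and its log2 value fell by 0.74 ± 0.17 (adjusted p = 0.0132), less than the minimum for a call. Leaving Lbp out for its filter, as at 12 h, the count was 3 of 9 members, all higher, where 23% of 13023 genes were called and 10.9% were called higher. The same 3 lay above all controls, as did 27% of genes. The median of the 9 was 0.62 against -0.00 over all genes.

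Nlrp6, the member with the highest organoid level, had 6109, 3081 and 3117 normalized counts in controls and 8018, 5152 and 8374 with IL-1 at 72 h, a log2 change of 0.85 ± 0.31 (limma adjusted p = 0.0598). The male libraries had 6109 against 8018 and 8374, and the female ones 3081 and 3117 against 5152, so that treated libraries lay above controls within each sex, at 1.34 and 1.66 times. With sex as a block the adjusted p was 0.0208. The receptors Tlr4 (-0.68, adjusted p = 0.124), Tlr5 (0.62, adjusted p = 0.452), Nod1 (-0.42, adjusted p = 0.169) and the co-receptor gene Ly96 (0.46, adjusted p = 0.296) missed the threshold, each with overlapping groups. Within each sex treated libraries lay below controls for Tlr4, at 0.810 (male) and 0.692 (female) times, and for Nod1, at 0.827 and 0.788 times. Tlr5 overlapped among male and Ly96 among female libraries.

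With IL-17A at 72 h, Cd14 had 592, 997 and 1006 normalized counts in controls and 4378, 1610 and 2251 in treated libraries, a log2 change of 1.58 ± 0.39 (limma adjusted p = 0.0491). Tlr2 had 382, 244 and 251 against 1375, 845 and 1101, a change of 1.92 ± 0.26 (adjusted p = 0.027). Nod2 had 41.6, 44.5 and 37.2 against 229.6, 358 and 93.2, a change of 2.24 ± 0.49 (adjusted p = 0.044). In all 3 genes the lowest treated library lay above the highest control, as it did for 21.7% of genes. Library 1, the highest in Cd14 and Tlr2, had goblet markers at 2352 CPM against 8352 and 9589 in the other IL-17A libraries and stromal markers at 61.8 CPM against 14.4 and 27.9. Without it Cd14 had 1.18 and Tlr2 1.75 (adjusted p = 0.167 and 0.162). Lbp had 0, 4.74 and 2.54 against 19.0, 16.9 and 60.5, a change of 3.36 ± 0.85 (adjusted p = 0.0499), which was 8 against 83 reads and a ratio of 10.5 (5.09 to 25.1). Myd88 had 423, 386 and 443 against 253, 243 and 248, and its log2 value fell by 0.75 ± 0.17 (adjusted p = 0.0465). Without Lbp the count was again 3 of 9 members, where 7.94% of 13073 genes were called and 5.02% were called higher, and the median of the 9 was 0.90 against -0.01 over all genes. Nlrp6 had 6096, 3063 and 3111 against 8459, 5853 and 7687, a change of 0.90 ± 0.30 (adjusted p = 0.0799), and Tlr5 (1.41), Ly96 (0.72), Tlr4 (-0.52) and Nod1 (-0.31) were not called.

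At 72 h only 1 control was male, so a comparison within that sex has no spread among controls. That control was also the untreated library low in Hoxb13 and had the lowest Cd14 of the 3. Against it the 3 male IL-17A libraries averaged 4.64 times for Cd14, 2.90 times for Tlr2, 5.45 times for Nod2 and 0.586 times for Myd88, with no overlap, and 1.20 times for Nlrp6, with overlap. Of the IL-17A libraries only number 2 shared its low Hoxb13, and there Cd14 was at 1610 against 592 normalized counts, Tlr2 at 845 against 382 and Nod2 at 358 against 41.6, with 1 library on each side. Sex and treatment were partly confounded in that table, and with sex as a block 0 members were called with IL-17A and 2 (Lbp and Nod2) with IL-1. With Lbp counted, leaving out one library gave 0 to 6 called members with IL-17A and 1 to 4 with IL-1: the IL-17A count was 0 without IL17A-72h replicate 1, Control-72h replicate 2 or Control-72h replicate 4 and 1 without Control-72h replicate 1 or IL17A-72h replicate 3, and the IL-1 count was 1 without IL1a+IL1b-72h replicate 1, Control-72h replicate 2 or Control-72h replicate 4. Defining markers of macrophages and neutrophils were at or near 0 in organoids, or had no row there and were set to 0. Macrophage markers summed to 8.46 to 29.2 CPM in organoids with 9 or 10 of 13 genes at 0 or without a row. Adgre1 and Csf1r were at 0 or without a row in every library, as were 7 of 8 neutrophil markers, S100a8 included. These zeros are therefore not a measured absence of such cells. The remaining one, Ly6g, was at 133 to 774 CPM and highest at 72 h with cytokine.

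The cytokine effects were compared between times and between cytokines. For IL-1 the difference, 72 h minus 12 h, was -0.65 ± 0.20 for Myd88 (limma adjusted p = 0.0395), below the minimum for a call, and 0 members were called where 17.4% of 12953 genes were. Nlrp6 had a difference of 1.24 ± 0.47 (adjusted p = 0.0721), and Nod2 (-0.50), Cd14 (0.55) and Lbp (0.16) were further from the threshold. For IL-17A the differences were 1.40 ± 0.34 for Tlr2 (adjusted p = 0.0734), -0.73 ± 0.19 for Myd88 (adjusted p = 0.0736) and 1.27 ± 0.48 for Nlrp6 (adjusted p = 0.127), and 0 members were called where 0.0384% of 13020 genes were, with 3 members at an unadjusted p under 0.05 and 0 by edgeR. These fits entered the repeated control libraries under both times. At 12 h the controls held 2 male and 1 female library, and each treated group 1 male and 2 female. At 72 h the treated groups held more male libraries than the controls. Within male libraries Nlrp6 with IL-17A was 0.957 times control at 12 h and 1.20 times at 72 h. With IL-1 it was 0.871 and 1.34 times in male and 0.938 and 1.66 times in female libraries. Sex and time therefore cannot be fully told apart in these differences. A change in the cytokine effect cannot be fully told apart from time in culture in these fits. With each distinct control once, the controls cancelled, and treated libraries at 72 h were set directly against treated libraries at 12 h. That fit holds no control for time in culture, so it does not measure a change in the cytokine effect. In it Nlrp6 was called with IL-1 (1.05, limma adjusted p = 0.0184) where 20.9% of genes were, and Tlr2 (1.36, adjusted p = 0.0095) and Nlrp6 (1.08, adjusted p = 0.0354) with IL-17A, where 12.7% were. The IL-17A libraries were 3 male at 72 h against 1 male and 2 female at 12 h. Set directly against each other, IL-1 and IL-17A differed in 0 members and in 0% of genes at both 12 h and 72 h, with 1 member (Nod2, 0.64 ± 0.19 higher with IL-1) and 0 members at an unadjusted p under 0.05, and edgeR called 0.

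**Figure D5:**
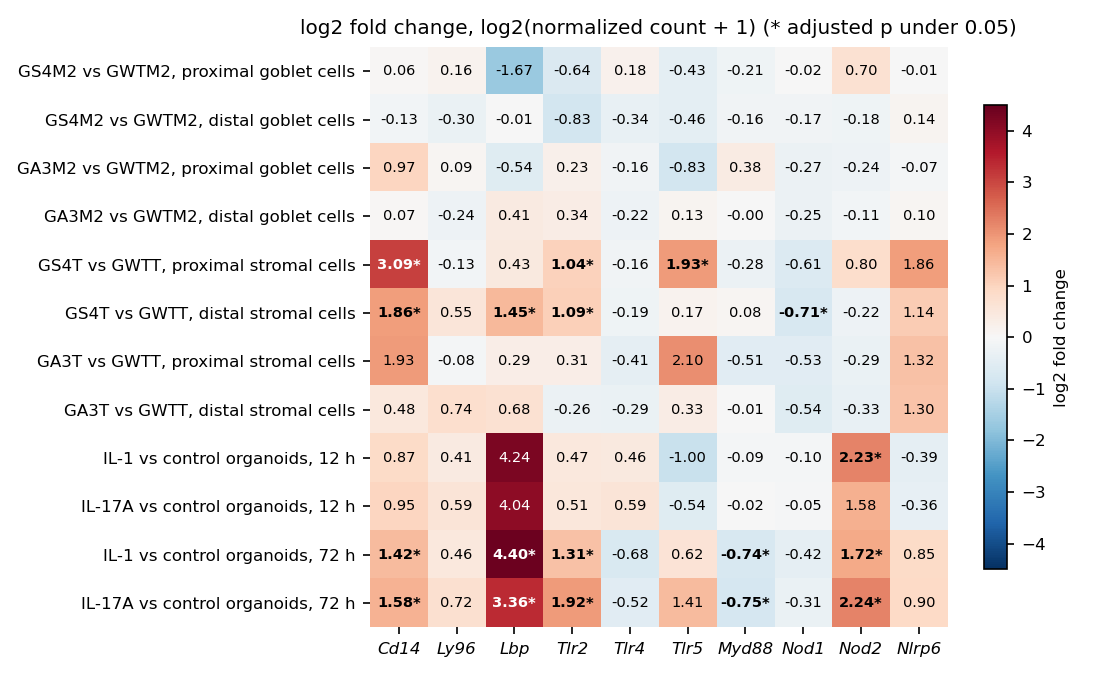
Log2 fold change of each member in the 12 comparisons with controls, on the scale of log2(normalized count + 1), with red for higher and blue for lower in the knockout or treated group; an asterisk marks an adjusted p under 0.05 (limma). Marked values stand in the GS4T and 72 h organoid comparisons and for Nod2 with IL-1 at 12 h, and none stands in goblet cells.

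Other sensing genes in organoids were read at 72 h against the 10.9% (IL-1) and 5.02% (IL-17A) of all genes called higher. With IL-1, 3 of 17 adaptors and kinases tested were called higher and 0 lower, and 2 of 11 inflammasome genes were called higher with all 11 values positive (median 0.65). The largest changes were in Nlrp9b (3.71), Dusp1 (2.34), a phosphatase of mitogen-activated protein kinases, Pglyrp1 (2.25), Irf7 (2.09), Irak2 (1.89), a kinase downstream of MyD88, and Nlrp10 (1.85). With IL-17A, 2 of 17 adaptors and kinases and 2 of 11 inflammasome genes were called higher, led by Nlrp9b (3.32), Irf7 (2.24), Pglyrp1 (2.05), Dusp1 (1.99), Casp4 (1.83), which encodes a caspase that binds lipopolysaccharide, and Unc93b1 (1.81), a chaperone of Toll-like receptors. Of the other Toll-like receptors 0 were called, and only 2 or 3 of 10 passed the filter on low values. At 12 h 0 genes of these lists were called by limma with either cytokine, and DESeq2 called 2 with IL-1 and 0 with IL-17A.

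Across the 16 distinct organoid libraries each member was set beside 11435 genes to find those with the most similar profile, as a description in libraries that share controls, sex and treatment. Cd14 was most like Ly6a (Pearson r = 0.967), Abcc4 (0.934) and Ugp2 (0.919), and Nod2 was most like Parp14 (0.913), Tnf (0.911) and Ceacam10 (0.867). Lbp was most like Nt5c1a (0.877) and the chemokine gene Ccl20 (0.877), and Tlr2 was most like Txnrd1 (0.970). Nlrp6 lay closest to H2-Q2 (0.981), Tlr4 to Cul1 (0.973), Tlr5 to Pparg (0.942), Myd88 to Ebag9 (0.979) and Nod1 to Nfrkb (0.955), while Ly96 had no gene above Rnf121 (0.777).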

How the data were processed

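Groups came from the sample labels alone. The authors mapped reads uniquely to mm10 with STAR 2.5.3 and normalized gene counts with DESeq2 1.28.1, and the counting program, annotation and strand setting are not given in the sources used here. As deposited by the authors, each value is a normalized signal, a gene count divided by 1 size factor per library within its table. Every value was a whole multiple of a step of 0.752 to 1.26 (100% within 0.1 of a whole number), which gave back the reads. Rows without a gene name, 4 in each of 2 tables, were left out. They held 20.9% to 28.2% of the summed normalized counts of each library there.

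The test was limma 3.58.1 with a trend on log2(normalized count + 1), so fold changes of low genes are understated, over genes with a mean of at least 10 and with Benjamini-Hochberg adjustment over all of them. A call needed an adjusted p under 0.05 and, as in the study, a log2 change of at least 1. Counts at an unadjusted p are given without the share of all genes at that p, and no excess is read from them. Goblet against stromal controls, and IL-1 against IL-17A, used recovered reads scaled together. Alternatives were other pseudocounts (0.1, 10), filters (none, 50) and scaling, edgeR 4.0.16, DESeq2 1.42.0, the unadjusted p, a block on replicate number and leaving out each library; blocks on sex, averaging of the most alike libraries and single use of repeated controls were chosen after seeing the data. The fits were tested on simulated data. CPM used reads on named genes, and levels per kb used GENCODE M21 exon lengths. A marker gene without a row in a deposited table was entered as 0 CPM. Members and lists were chosen with earlier results of these data known. Members were described everywhere, with full statistics at an adjusted p under 0.05 or where organoid groups did not overlap. At most 6 called genes of the wider lists were named per comparison, by size, and the 3 most similar genes per member at 1 CPM or more. Where nothing says that libraries came from separate mice or cultures, p-values measure only the spread between these libraries.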

Additional observations from a re-analysis of the deposited data

Results flagged for a closer look

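A test of the difference itself singled out a few genes whose effect under the same contrast was not alike in 2 settings. Among the members this was Myd88, whose IL-1 effect, 72 h minus 12 h, was -0.65 on the log2 scale (limma adjusted p = 0.0395). Among the other sensing genes the IL-1 effect was larger at 72 h for Nlrp9b (3.11, adjusted p = 0.0053), Dusp1 (2.29, adjusted p = 0.0053), Irak2 (1.67, adjusted p = 0.0053) and Ticam1 (1.35, adjusted p = 0.018), and it was lower at 72 h for Irak3 (-1.70, adjusted p = 0.012) and Hmgb1 (-1.52, adjusted p = 0.0063). In stromal cells the Smad4 knockout effect on Cd36, proximal minus distal, was 3.02 (adjusted p = 0.045). The repeated control libraries entered these time differences under both times, so a change in the cytokine effect cannot be fully told apart from time in culture. Sex was not balanced between the groups of these differences either. Groups held 2 or 3 libraries, too few to test a single library as an outlier.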

How the results depend on the processing

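In the comparisons with controls, the 18 member values with an adjusted p under 0.05 kept their sign under every alternative run for them, and 131 of 167 alternatives and 44 of 93 fits without a library also kept the side of the threshold. Fits that left out a library gave 0 to 4 called members for GS4T proximal (3 with all libraries), 2 to 3 for GS4T distal (3), 0 to 1 for GA3T distal (0), 0 for IL-1 at 12 h (1), 1 to 4 for IL-1 at 72 h (4), 0 to 6 for IL-17A at 72 h (4), 0 to 2 and 0 to 1 for the time differences of IL-1 and IL-17A (0), and 2 to 5 for goblet against stromal controls (4). The study's thresholds, an unadjusted p under 0.05 and a log2 change of at least 1, were applied to limma, where the study used DESeq2. They gave 2 called members for GA3T proximal, 1 for GA3T distal, 2 for IL-1 and 2 for IL-17A at 12 h. The shares of all genes under this rule are not given. DESeq2 called 2 members for GA3T proximal and 2 at 12 h with either cytokine, and edgeR called 0 for IL-1 at 12 h. For IL-1 at 12 h a pseudocount of 10 gave 2 and a mean of at least 50 gave 0. For IL-17A at 72 h a pseudocount of 0.1 gave 2 and upper-quartile rescaling gave 1. With sex as a block, chosen after seeing the data, the counts were 1 for GA3M2 distal, GA3T proximal, GA3T distal and IL-17A at 12 h, 2 for IL-1 at 72 h and 0 for IL-17A at 72 h. Averaging the most alike libraries gave 0 for IL-1 at 12 h, 1 for IL-1 and 0 for IL-17A at 72 h. Single use of repeated controls, which set treated libraries of the 2 times directly against each other, gave 1 and 2 called members for IL-1 and IL-17A. All counts in organoids here include Lbp, which passed the filter only through treated libraries. The causes of these shifts were not tested.

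A block on the replicate number gave 1 called member for GA3T proximal (0 without it), 2 for IL-1 and 2 for IL-17A at 12 h (1 and 0), and 0 for IL-17A at 72 h (4), where calls over all genes went from 1038 to 4; it kept the counts of the other comparisons with controls within 1.5 times. Groups shared only 2 numbers each, and same-numbered libraries deviated together with correlations of 0.62 to 0.64 at 12 h, 0.18 to 0.20 for IL-1 and -0.19 to -0.10 for IL-17A at 72 h, and -0.06 to 0.30 in sorted cells, so the numbers were not taken to pair the libraries. Depth limits Lbp in organoids, with 6 to 8 reads over 3 control libraries, and with 2 or 3 libraries per group many calls lie close to the threshold.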
